A study of Homo sapiens with 8 samples.

Results

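Gene expression was compared between the human colon cancer cell lines DKS-5, which the labels call K-ras mutant, and DKO-3, which they call K-ras knockout (wild-type), using all 8 arrays of the study. Each line contributed 2 arrays of cells kept at 21% O2 (normoxia) and 2 arrays of cells kept for 12 h at 1% O2 (hypoxia), so that 4 DKS-5 arrays were set against 4 DKO-3 arrays with oxygen as an additive term. All cells were grown in standard medium and harvested at subconfluence, and total RNA was amplified and hybridised to Affymetrix HG-U133 Plus 2.0 arrays, which carry short probes for most human genes. The series text says that the incubations were repeated to give the 2 samples of a group, without saying whether these were independent cultures. The p-values therefore measure the spread between these samples alone, and that spread may be technical. Each genotype was represented by 1 cell line, so the K-ras genotype and any other difference between the lines cannot be told apart. K-ras expression was not analysed here.

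K-ras is a small GTPase that passes signals from growth factor receptors to the RAF, MEK and ERK kinases, and mutations that hold it in its active state are common in colon cancer. In the colon, stem cells at the crypt base depend on Wnt signals, and their daughters mature into absorptive cells and mucus-secreting cells that carry keratin 20 and trefoil peptides. Like nearly all nucleated cells, colon cells also show peptides cut by the proteasome on MHC class I molecules, a pathway whose genes respond to interferon.

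A difference is given below as DKS-5 minus DKO-3 on the log2(signal + 16) scale, which understates the change of dim genes, and signals are linear probe set intensities after scaling of the arrays. A gene was called when its adjusted p from limma's moderated test (Benjamini-Hochberg over all genes tested) was under 0.05. It was said to differ alike when, in addition, the arrays of the lines did not overlap at either oxygen level and the smaller of the differences in normoxia and in hypoxia was at least 0.5 of the larger, in the same direction.

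Of 12735 genes tested, 1264 (9.93%) were called between the lines. The 419 genes higher in DKS-5 made up 3.29% of the genes tested, and the 845 genes lower in DKS-5 made up 6.64%. The median difference of the called genes was 0.69 for those higher in DKS-5 and -0.80 for those lower, and it was -0.01 over all genes tested. Without scaling of the arrays the median of all genes shifted to -0.21, and the split was 148 higher and 1576 lower. Differences of 2-fold or more were found in 331 called genes, 84 higher and 247 lower in DKS-5, and differences of 4-fold or more in 45, 12 higher and 33 lower. The last gene inside the threshold was NUP58 (adjusted p 0.05) and the first outside was SENP8 (adjusted p 0.0502).

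Most of the called genes met the rule for differing alike at both oxygen levels. By the rule above, 1085 called genes (8.52% of those tested) differed alike, 335 higher and 750 lower in DKS-5, and they included 319 of the 331 called genes with a difference of 2-fold or more. The arrays of the lines were apart at both oxygen levels in 1208 of the 1264 called genes, against 21.5% of all genes tested. A further 123 of the 1208 had a smaller difference below 0.5 of the larger, 56 called genes overlapped at 1 or both levels, and 0 had opposite directions in normoxia and hypoxia. Genes were called on the pooled difference of these same arrays, which favours genes apart in the same direction at both levels. These counts therefore describe the called genes and are no separate test of likeness. The median ratio of the smaller to the larger difference was 0.769 over the called genes. In the test of the interaction itself, 0 genes passed at an adjusted p under 0.05, with a lowest adjusted p of 0.738. An unadjusted p under 0.05 was found in 333 genes, only 2.61% of those tested, and in 41 of the 1264 called genes. The median SE of the interaction was 0.36, so a moderate dependence on oxygen was not detectable in most genes with 2 arrays a group.

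**Figure D1:**
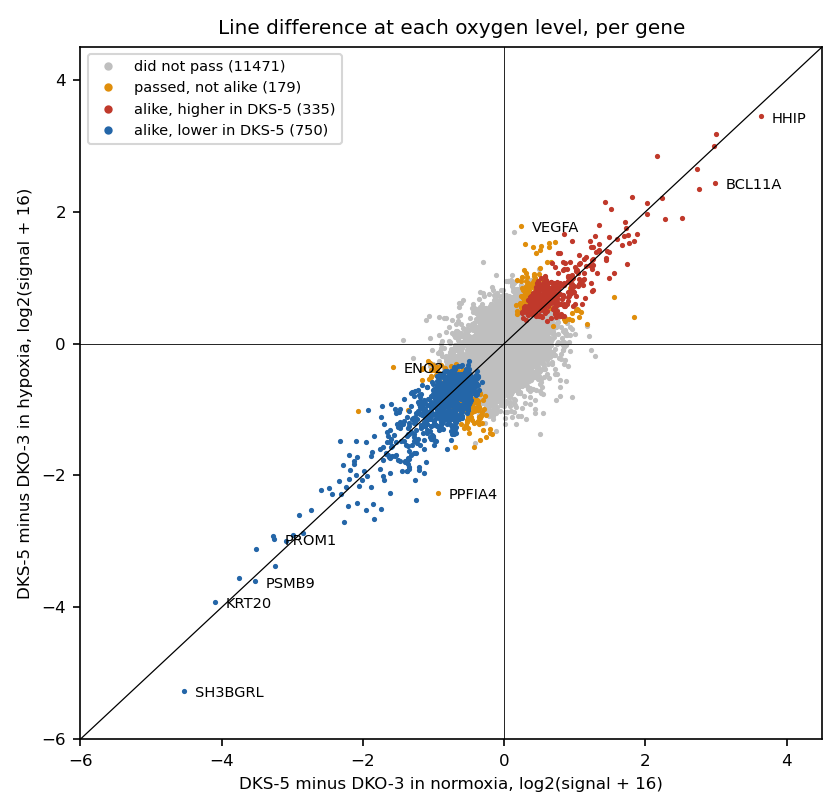
Each point is 1 tested gene, with DKS-5 minus DKO-3 on the log2(signal + 16) scale in normoxia on the x axis and in hypoxia on the y axis. The 1085 genes that differed alike lie along the diagonal in both directions, from HHIP at the top right to SH3BGRL at the bottom left.

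Pooling both oxygen levels called many genes that neither level gave alone. Tested at 1 oxygen level within a fit of 4 group means, 324 genes (2.54%) were called in normoxia and 557 (4.37%) in hypoxia. Both levels together gave 247 genes, all of them among the 1264, whereas 680 of the 1264 were called only when the oxygen levels were pooled. The oxygen term of the same additive fit called 197 genes (1.55%), of which 44 were also called between the lines.

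The arrays themselves differed along the same axis. Along the first principal component (38.6% of the variance) the 4 DKS-5 arrays lay on one side and the 4 DKO-3 arrays on the other. The second component, which held 23.6%, separated the oxygen levels. The normoxia arrays ran from 8.25 to 24.5 on it and the hypoxia arrays from -33.0 to 0.14. DKS-5 hypoxia replicate 2 stood apart at -33.0. The 3' to 5' signal ratio of ACTB measures how far the amplified RNA reached from the 3' end. It ran from 25.6 to 55.1 over the DKS-5 arrays and from 11 to 49.0 over the DKO-3 arrays. Of the DKO-3 arrays only normoxia replicate 1 (49.0) was within the DKS-5 range, the others being at 11, 11.5 and 14.9. Line and the log2 of this ratio shared 42.5% of their variance, so they were partly confounded. With that ratio as a covariate, 554 genes were called, 155 higher and 399 lower in DKS-5. All 1264 genes kept their direction, their median size was 0.78 against 0.76 without the covariate, and their median SE was 0.23 against 0.17. Leaving out DKS-5 hypoxia replicate 2 left 1148 called genes, and leaving out DKO-3 hypoxia replicate 1 left 826, the lowest count among the 8 arrays left out in turn. The part of RNA quality in the difference between the lines was not tested.

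Markers of the labelled tissue were measured in both lines, with exceptions. The 13 colon epithelial markers with a probe set, tested or not, were summed. Their summed signal ran from 18580 to 23339 on the DKS-5 arrays and from 19356 to 22724 on the DKO-3 arrays, which overlap. Such a sum follows its brightest members, so the overlap does not show that each marker was alike. EPCAM, the epithelial adhesion molecule, gave 7073 and 7038 (normoxia) and 7752 and 6704 (hypoxia) in DKS-5, against 6244 and 5998 (normoxia) and 5316 and 5737 (hypoxia) in DKO-3. All of these are bright, and the difference of 0.29 did not pass (adjusted p 0.0642). Of the 9 markers bright enough to test, 3 were called (33.3%, against 9.93% of all genes). They were KRT20 (-4.01), near the floor in DKS-5 at 6.2 to 15.5, VIL1 (1.65), dim in DKO-3 at 12.8 to 17.6, and KRT19 (-0.96). Of the non-epithelial markers, 6 of 21 with a probe set were bright enough to test. The summed signal of all 21 was 501 to 584 in DKS-5 and 420 to 536 in DKO-3. Only CD163, a macrophage receptor, was called (-1.03), from a dim signal of 5.49 to 11.3 in DKS-5 and 28.4 to 39.4 in DKO-3. In such bulk RNA, fewer cells of a kind and less RNA per cell cannot be told apart.

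The 250 bases before the start are shown for the 3 genes highest and the 3 genes lowest in DKS-5 among those that differed alike. They were picked by the size of the difference, and all were close to on in one line and off in the other. The sequences are from RefSeq, build GRCh38.p14, written 5' to 3' along the gene's strand. Capitals mark matches, on either strand, to TGANTCA (the AP-1 motif), CGGAAG (the ETS core), ACGTG or GCGTG (both forms of the hypoxia response core), and no base of these stretches belongs to more than 1 match.
HHIP, chr4:144645906-144646155, plus strand: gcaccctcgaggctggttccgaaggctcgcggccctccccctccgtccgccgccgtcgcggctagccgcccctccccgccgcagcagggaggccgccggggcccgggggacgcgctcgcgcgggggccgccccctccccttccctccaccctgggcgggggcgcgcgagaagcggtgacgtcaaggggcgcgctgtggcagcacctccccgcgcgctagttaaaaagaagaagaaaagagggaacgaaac
C6orf141, chr6:49550418-49550667, plus strand: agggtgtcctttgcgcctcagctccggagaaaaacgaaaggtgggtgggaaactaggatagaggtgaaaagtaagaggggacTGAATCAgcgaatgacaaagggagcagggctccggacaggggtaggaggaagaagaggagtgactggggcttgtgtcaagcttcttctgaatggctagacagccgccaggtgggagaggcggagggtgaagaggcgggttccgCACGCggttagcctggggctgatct
NIBAN1, chr1:184974509-184974758, minus strand: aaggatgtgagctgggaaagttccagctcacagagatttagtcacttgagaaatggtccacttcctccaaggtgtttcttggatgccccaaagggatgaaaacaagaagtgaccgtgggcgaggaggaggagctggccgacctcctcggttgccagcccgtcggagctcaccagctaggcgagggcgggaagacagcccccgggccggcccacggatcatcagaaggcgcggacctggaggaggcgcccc
SH3BGRL, chrX:81201852-81202101, plus strand: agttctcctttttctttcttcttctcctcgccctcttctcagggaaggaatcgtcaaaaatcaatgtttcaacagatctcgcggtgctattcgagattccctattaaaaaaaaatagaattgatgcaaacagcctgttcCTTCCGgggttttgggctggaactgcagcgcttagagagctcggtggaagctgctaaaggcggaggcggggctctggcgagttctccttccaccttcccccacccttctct
KRT20, chr17:40885243-40885492, minus strand: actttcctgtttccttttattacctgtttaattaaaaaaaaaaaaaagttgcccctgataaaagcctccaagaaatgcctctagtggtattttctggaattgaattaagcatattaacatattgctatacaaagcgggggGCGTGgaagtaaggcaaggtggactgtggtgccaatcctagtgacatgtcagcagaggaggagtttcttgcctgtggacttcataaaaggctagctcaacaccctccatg
RPS6KA6, chrX:84188200-84188449, minus strand: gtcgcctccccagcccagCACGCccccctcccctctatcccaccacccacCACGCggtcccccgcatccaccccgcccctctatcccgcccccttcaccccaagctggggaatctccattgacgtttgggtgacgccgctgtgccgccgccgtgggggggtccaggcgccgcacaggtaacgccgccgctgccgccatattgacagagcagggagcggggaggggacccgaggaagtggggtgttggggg

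The 6 promoters differed in their content of CG pairs, the sites of DNA methylation. The HHIP promoter held 34 such pairs, RPS6KA6 21, NIBAN1 14, C6orf141 11 and SH3BGRL 11, whereas that of KRT20 held 2. C6orf141 alone of the 6 held TGANTCA, SH3BGRL alone held CGGAAG, and HHIP and NIBAN1 held none of the 4 motifs. Over promoter stretches of this length, TGANTCA was found in 4.90% of 347 genes higher in DKS-5, 4.72% of 678 genes lower in DKS-5 and 3.97% of 10344 genes tested. The share with CGGAAG was 18.4% among genes higher, 18.7% among genes lower and 27.3% among genes tested. ACGTG was found in 24.2%, 18.4% and 23.4% of these sets, and GCGTG in 43.5%, 40.3% and 44.6%. A match describes the letters of the window only.

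Among the genes higher in DKS-5, HHIP had the largest difference. HHIP, a membrane protein that binds and restrains hedgehog ligands, had a signal of 361 and 459 (normoxia) and 468 and 288 (hypoxia) in DKS-5, against 14 and 22.4 (normoxia) and 24.9 and 14.2 (hypoxia) in DKO-3. All 4 DKS-5 arrays were far above all 4 DKO-3 arrays, and the difference was 3.54 (SE 0.20, adjusted p 4.51e-09), or 11.7-fold, with 3 bright probe sets in the same direction. C6orf141, an uncharacterised open reading frame, gave 207 and 295 (normoxia) and 273 and 245 (hypoxia) in DKS-5, against 17.9 and 15.7 (normoxia) and 15.4 and 13 (hypoxia) in DKO-3. The difference was 3.09 (SE 0.17, adjusted p 4.51e-09). NIBAN1, a stress-responsive regulator of translation, gave 257 and 242 (normoxia) and 258 and 238 (hypoxia) in DKS-5, against 13.1 and 23.6 (normoxia) and 16.9 and 17 (hypoxia) in DKO-3. Its DKS-5 level hardly moved with oxygen, and the difference of 2.98 (SE 0.17, adjusted p 5.00e-09) was 2.97 in normoxia and 3.0 in hypoxia.

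Transcription factors stood among the genes highest in DKS-5. BCL11A, a zinc finger repressor known from blood cell development, gave 284 and 386 (normoxia) and 239 and 264 (hypoxia) in DKS-5, against 26.4 and 29.4 (normoxia) and 27.6 and 39.7 (hypoxia) in DKO-3, a difference of 2.71 (SE 0.18, adjusted p 5.13e-08) that 4 bright probe sets shared in direction. FOXA2, a forkhead factor of endoderm, gave 131 and 132 (normoxia) and 159 and 132 (hypoxia) in DKS-5, against 4.18 and 7.42 (normoxia) and 17.7 and 13.9 (hypoxia) in DKO-3. The DKO-3 arrays all lay below 20 and the DKS-5 arrays all above 100, a difference of 2.55 (SE 0.17, adjusted p 5.13e-08). ZNF182, an X-linked zinc finger gene, was 85.8 to 144 in DKS-5, compared with 0.188 to 16.1 in DKO-3 (2.69).

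Further genes high in DKS-5 encode secreted proteins and enzymes. NPTX2, a secreted pentraxin, differed by 2.51 (SE 0.20, adjusted p 3.08e-07), with 95.5 and 143 in DKS-5 normoxia and 202 and 161 in DKS-5 hypoxia against 8.52 to 14.2 on the DKO-3 arrays. TDO2, which opens the ring of tryptophan, differed by 2.21 (SE 0.20, adjusted p 1.67e-06), from 19 to 31.9 in DKO-3 to 123 to 227 in DKS-5. PLA2G4A, the cytosolic phospholipase that frees arachidonic acid, was 99.6 to 225 in DKS-5, compared with 15.2 to 35.8 in DKO-3 (2.08). SESN3, a sestrin that restrains mTORC1, was well expressed in both lines, at 505 to 624 in DKS-5 and 114 to 135 in DKO-3 (2.08), and 6 bright probe sets shared its direction. SESTD1 (2.22) and BAHCC1 (2.01) completed the 12 largest differences in this direction. BAHCC1 is uncertain, since its probe sets ran from -1.01 to 2.01 and their mean was not called (adjusted p 0.0508).

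The largest difference of all genes tested was in SH3BGRL, an X-linked gene for a small SH3-binding protein of the glutaredoxin fold. Its signal was 5.33 and 8.01 (normoxia) and 1.44 and 6.72 (hypoxia) in DKS-5, against 524 and 491 (normoxia) and 886 and 635 (hypoxia) in DKO-3. The DKS-5 arrays lay below the level of 13.8 at which genes were tested, whereas the DKO-3 arrays were bright, and the fitted difference was -4.90 (SE 0.20, adjusted p 1.99e-10), or 29.8-fold. Its other probe set gave -4.86. KRT20, the keratin of mature enterocytes and goblet cells, gave 7.18 and 15.5 (normoxia) and 10.3 and 6.2 (hypoxia) in DKS-5, against 445 and 444 (normoxia) and 407 and 301 (hypoxia) in DKO-3, a difference of -4.01 (SE 0.18, adjusted p 5.08e-10) or 16.1-fold. RPS6KA6, which encodes RSK4, a kinase of the family that acts below ERK, gave 8.17 and 0.805 (normoxia) and 3.62 and 1.74 (hypoxia) in DKS-5, against 319 and 207 (normoxia) and 227 and 182 (hypoxia) in DKO-3. All 4 DKS-5 arrays were under 10 and all 4 DKO-3 arrays over 100, with a difference of -3.66 (SE 0.19, adjusted p 2.79e-09).

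PSMB9, a catalytic subunit of the immunoproteasome, was dim but steady in DKS-5. The signal was 56.3 and 52.4 (normoxia) and 58.7 and 55.1 (hypoxia) in DKS-5, against 642 and 988 (normoxia) and 793 and 959 (hypoxia) in DKO-3. The lines were more than 10-fold apart on the linear scale at both oxygen levels, and the difference was -3.57 (SE 0.17, adjusted p 9.55e-10), -3.53 in normoxia and -3.61 in hypoxia. PROM1, the CD133 antigen of stem and progenitor cells, gave 94.8 and 122 (normoxia) and 114 and 81.7 (hypoxia) in DKS-5, against 1302 and 1051 (normoxia) and 804 and 919 (hypoxia) in DKO-3. It was still measured in DKS-5, at a level 8.63-fold lower on the fitted scale (difference -3.11 (SE 0.17, adjusted p 3.07e-09)).

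The remaining genes among the 12 lowest were at or near the floor of the array in DKS-5. CADPS2, a regulator of dense-core vesicle release, was 0.514 to 8.75 in DKS-5, compared with 130.0 to 209 in DKO-3 (-3.32). KLHL13, an X-linked adaptor of a ubiquitin ligase, was at 0.819 to 3.16 and 121 to 189 (-3.31), and HMGN5, an X-linked nucleosome-binding protein, at 0.487 to 5.58 and 102 to 184 (-3.09). For CELF2, an RNA-binding splicing factor (-3.04), DKS-5 hypoxia replicate 2 read 19.4 and the other DKS-5 arrays under 3. APOL3, an interferon-responsive apolipoprotein L (-2.86), and the long non-coding RNA LINC01133 (-2.75) showed no overlap either. CALCA, the gene of calcitonin, differed by -2.95, and its 4 probe sets ran from -2.95 to -0.36. With a pseudocount of 1 another of these probe sets stood for the gene, and it was not called (adjusted p 0.216). By a stricter on-off rule, a signal under 50 on all 4 arrays of one line and over 200 on all 4 of the other, 6 genes qualified. They were SH3BGRL and KRT20, low in DKS-5, and HHIP, C6orf141, NIBAN1 and BCL11A, low in DKO-3.

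**Figure D2:**
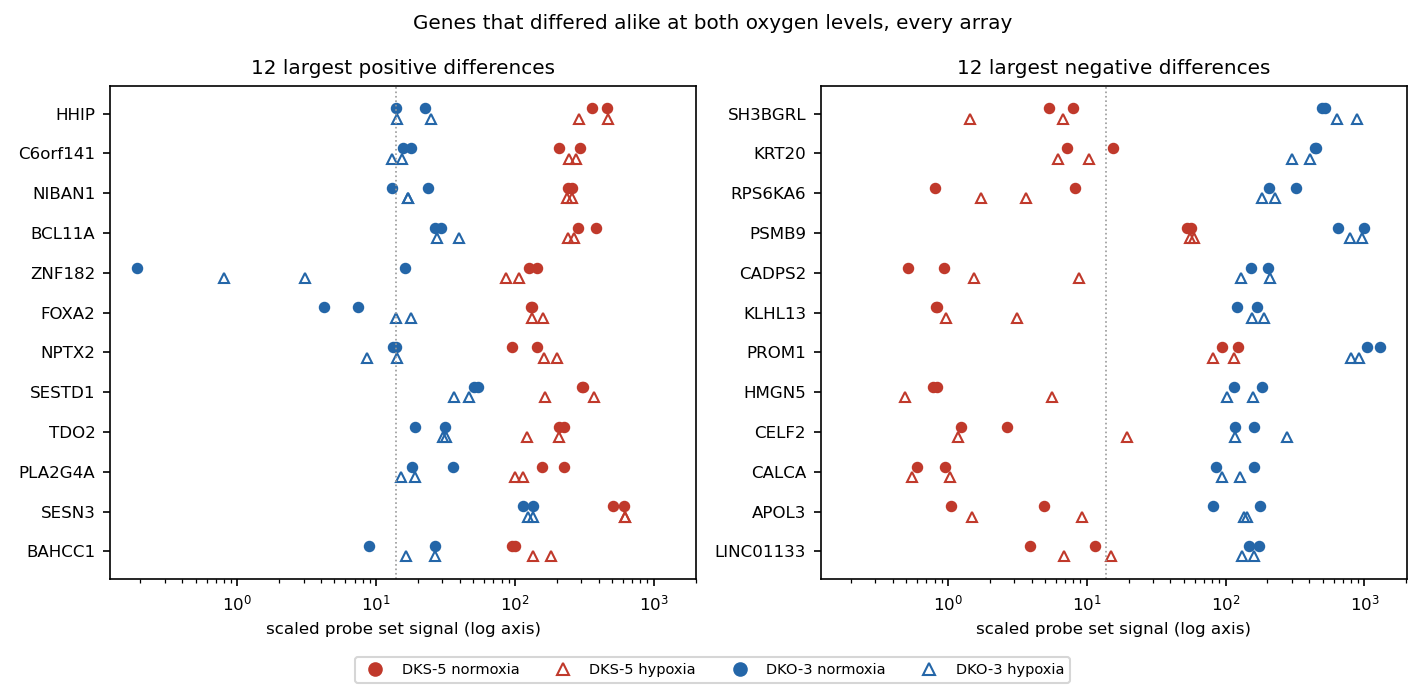
Scaled signal (log axis) of the 12 genes highest and the 12 genes lowest in DKS-5 among those that differed alike, with 1 symbol for each array by line and oxygen level. The dotted line marks the signal of 13.8 at which genes were tested. The rule for differing alike already requires that the lines do not overlap within either oxygen level. For SH3BGRL the gap between the lines is between 8.01 and 491.

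The genes of MHC class I presentation had the highest share of called members among the 22 gene lists examined. Of 16 members tested, 9 were lower in DKS-5, 0 were higher and 7 did not pass (56.2% called, against 9.93% of all genes), and the median difference was -0.66 with 0 members above 0, against a median of -0.01 over all genes. All 9 differed alike. The lists and their members were chosen with earlier results of these data known. Shares of called members, here and below, therefore describe the lists and do not test whether a pathway stands out. After PSMB9, the next was NLRC5, the activator of class I gene transcription, with 5.04 to 18.4 in DKS-5 and 58.2 to 83.3 in DKO-3 (-1.59 (SE 0.18, adjusted p 2.10e-05)).

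Several further steps of the class I pathway were lower in DKS-5. HLA-B, a heavy chain that presents the peptide, gave 379 and 520.2 (normoxia) and 616 and 623 (hypoxia) in DKS-5, against 810.0 and 1454 (normoxia) and 1472 and 1393 (hypoxia) in DKO-3. Its lines did not overlap within either oxygen level, and the difference was -1.22 (SE 0.17, adjusted p 0.000138). HLA-C (-0.74) and HLA-E (-0.70) were lower as well, although HLA probe sets can share sequence between these near-identical genes and each value is uncertain for that reason. PSMB8, another immunoproteasome subunit, differed by -1.04, and the peptide transporter subunits TAP1 and TAP2 by -0.78 and -0.71. B2M, the invariant light chain, gave 3006 and 2764 (normoxia) and 2949 and 3089 (hypoxia) in DKS-5, against 4956 and 4469 (normoxia) and 3399 and 4732 (hypoxia) in DKO-3, a small difference of -0.56 (SE 0.12, adjusted p 0.00685). Members that did not pass included TAPBP (-0.60), PSMB10 (-0.63) and the trimming peptidases ERAP1 (-0.28) and ERAP2 (-0.10). With the ACTB ratio as a covariate 4 members were called.

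Of 21 interferon-stimulated genes tested, 7 were lower in DKS-5, 0 higher and 14 did not pass (33.3% called, against 9.93% of all genes). Their median was -0.29. IFIT1, which binds foreign RNA caps, gave 17.6 and 17.7 (normoxia) and 19.8 and 31.3 (hypoxia) in DKS-5, against 109 and 108 (normoxia) and 97.8 and 144 (hypoxia) in DKO-3. The DKS-5 arrays were all below 32 and the DKO-3 arrays all above 90, a difference of -1.80 (SE 0.18, adjusted p 4.20e-06). Its relatives IFIT2 and IFIT3 differed by -1.94 (SE 0.23, adjusted p 2.99e-05) and -1.88 (SE 0.17, adjusted p 1.58e-06). Smaller differences were found in IFI6 (-1.28), the oligoadenylate synthetase OAS2 (-0.89), the helicase DDX60 (-0.69) and the nuclease ISG20 (-0.56). MX1, an antiviral GTPase, had 0.27 and did not pass, and neither did ISG15 (-0.61) or IRF1 (-0.20). A filter at the 60th percentile, or the ACTB ratio as a covariate, left 4 called members.

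**Figure D3:**
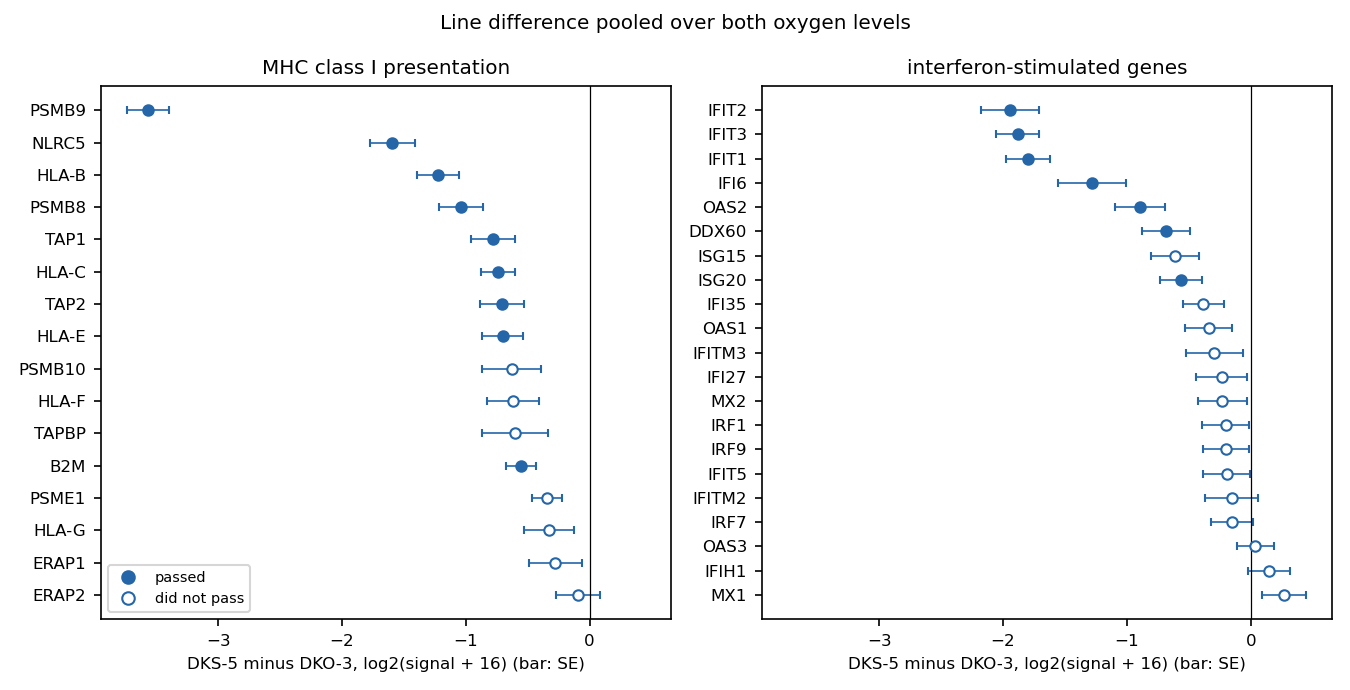
DKS-5 minus DKO-3 on the log2(signal + 16) scale, with its SE, for each tested gene of the MHC class I list and of the interferon list, filled where the gene passed. All 16 MHC class I members lie below 0, down to PSMB9 at -3.57, and the 3 interferon genes above 0 are open symbols.

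Markers of secretory differentiation were lower in DKS-5 where they passed. Of 16 mucin, trefoil and secretory genes tested, 5 were lower in DKS-5, 0 higher and 11 did not pass, with a median of -0.37. Thus 31.2% were called, against 9.93% of all genes. TFF2, a trefoil peptide of mucus, had a signal of 0.542 and 1.72 (normoxia) and 10.5 and 1.52 (hypoxia) in DKS-5, against 24.7 and 30.9 (normoxia) and 68.6 and 60.6 (hypoxia) in DKO-3. It was close to the floor in DKS-5 and low in DKO-3, with a difference of -1.63 (SE 0.19, adjusted p 2.11e-05). SPINK4, a goblet cell protease inhibitor (-1.07), TFF1 (-0.77), the gel-forming mucin MUC6 (-1.18) and AGR2, which folds mucins in the endoplasmic reticulum (-0.65), were the others. AGR2 overlapped between the lines in normoxia and MUC6 in hypoxia, so they were not counted as alike. Leaving out any 1 of 5 arrays gave 3 called members in place of 5, namely DKS-5 normoxia replicate 1, DKS-5 hypoxia replicate 2, DKO-3 normoxia replicate 2 and both DKO-3 hypoxia arrays. MUC13, a cell surface mucin, had -0.00 and TFF3, the main trefoil peptide of the colon, -0.30, neither of which passed.

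Keratins and junction genes went both ways. Of 26 tested, 3 were lower in DKS-5, 2 higher and 21 did not pass (19.2% called, against 9.93% of all genes). Their median was -0.04. Besides KRT20, the simple keratin KRT19 gave 571 and 671 (normoxia) and 1388 and 1669 (hypoxia) in DKS-5, against 951 and 1744 (normoxia) and 2930.0 and 2722 (hypoxia) in DKO-3. KRT19 was lower in DKS-5 at either oxygen level and higher in hypoxia than in normoxia in both lines, so that the lines were apart only within an oxygen level (-0.96 (SE 0.16, adjusted p 0.000938)). CLDN1, a tight junction claudin, was at 105 to 121 in DKS-5 and 232 to 297 in DKO-3 (-1.11 (SE 0.16, adjusted p 0.000186)). The desmosomal cadherins DSC2 (0.95) and DSG2 (0.65) were higher in DKS-5, and neither was called without DKS-5 normoxia replicate 2 or without DKO-3 hypoxia replicate 1, which left 3 called members. E-cadherin (CDH1, 0.03), KRT8 (-0.18) and KRT18 (-0.03) did not pass.

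Of 17 intestinal transcription factors and enterocyte genes tested, 2 were higher in DKS-5, 1 lower and 14 did not pass. That made 17.6% called, against 9.93% of all genes. VIL1, the villin of the brush border, gave 103 and 93.2 (normoxia) and 87.5 and 54.8 (hypoxia) in DKS-5, against 17.4 and 17.6 (normoxia) and 12.8 and 14.4 (hypoxia) in DKO-3. All DKS-5 arrays were above all DKO-3 arrays, a difference of 1.65 (SE 0.18, adjusted p 8.57e-06). REG4, a secreted lectin of enteroendocrine and goblet cells, went the other way, at 30.4 to 83.6 in DKS-5 and 150.1 to 265 in DKO-3 (-1.69 (SE 0.23, adjusted p 9.52e-05)). CDX2, the homeobox factor that sets intestinal identity, had -0.17 and did not pass, nor did FOXA1 (-0.46).

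Among Wnt targets and stem cell genes, 4 of 16 tested were higher in DKS-5, 1 was lower and 11 did not pass. The median of 0.17 was -0.03 without scaling. Called members made up 31.2%, against 9.93% of all genes. All 5 differed alike. LGR5, the R-spondin receptor that marks crypt stem cells, gave 235 and 309 (normoxia) and 217 and 136 (hypoxia) in DKS-5, against 109 and 66.6 (normoxia) and 65.2 and 94 (hypoxia) in DKO-3. DKS-5 lay above DKO-3 on every array, with a difference of 1.24 (SE 0.21, adjusted p 0.000828). TNFRSF19, a Wnt-responsive receptor of the same stem cells, gave 697 and 1072 (normoxia) and 1010.1 and 935 (hypoxia) in DKS-5, against 262 and 153 (normoxia) and 204 and 274 (hypoxia) in DKO-3 and differed by 1.99 (SE 0.19, adjusted p 2.09e-06). ZNRF3, a ligase that removes Wnt receptors (0.86), and ASCL2, a transcription factor of stem cells (0.44), had smaller differences. PROM1, the stem cell antigen described above, was the member lower in DKS-5. Without DKS-5 normoxia replicate 2, or without DKO-3 hypoxia replicate 1, 3 members were called. AXIN2 (0.19) and SOX9 (0.01), common Wnt readouts of the colon, did not pass.

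HOX genes, which keep positional identity, gave 3 lower and 1 higher of 19 tested, with 15 not passing and a median of -0.08. Their share called was 21.1%, against 9.93% of all genes. HOXD10 gave 53.3 and 42.2 (normoxia) and 108 and 60.1 (hypoxia) in DKS-5, against 439 and 306 (normoxia) and 532 and 362 (hypoxia) in DKO-3. The lines were well apart, with a difference of -2.41 (SE 0.20, adjusted p 6.66e-07). Its neighbours in the cluster HOXD11 (-0.96) and HOXD13 (-0.72) were lower as well but dim, at no more than 56.8 on any array. HOXD13 is uncertain, being lost under 8 of the 20 alternatives in which it was tested. HOXD9 (-0.34) and HOXD8 (-0.04) did not pass. HOXB6 was higher in DKS-5 (0.80 (SE 0.18, adjusted p 0.00844)), whereas HOXB5 (0.42) and HOXB7 (-0.08) did not pass.

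Among genes switched on by ERK, the kinase below K-ras, the share called was not far from the 9.93% of all genes. Of 21 tested, 2 were higher in DKS-5, 1 lower and 18 did not pass (14.3% called), with a median of 0.14 that was -0.07 without scaling. ETV1, an ETS factor, was at 81.5 to 122 in DKS-5 and 9.48 to 31.9 in DKO-3 (1.77 (SE 0.19, adjusted p 1.05e-05)). IER3, an early response gene, was bright in both lines and higher in DKS-5 (0.69 (SE 0.13, adjusted p 0.00147)), and the ephrin receptor EPHA4 was lower (-1.21 (SE 0.21, adjusted p 0.000931)). The ERK phosphatases DUSP6 (0.20) and DUSP4 (-0.43), the Sprouty genes SPRY2 (0.16) and SPRY4 (-0.05), the AP-1 member FOSL1 (0.18) and the cyclin CCND1 (-0.10) did not pass. In the EGF receptor family, 1 of 9 genes tested (11.1%, against 9.93% of all genes) was called, the ligand betacellulin (BTC, -1.0 (SE 0.17, adjusted p 0.000907)), lower in DKS-5. EGFR (0.09), EREG (-0.14) and TGFA (-0.37) did not pass.

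Growth factors of the TGF-beta and BMP class and their regulators gave 2 higher and 4 lower of 21 tested, with 15 not passing. So 28.6% were called, against 9.93% of all genes. BMP2, a ligand of maturing colon cells, was at 21.2 and 24.3 in DKS-5 normoxia and 44.6 and 73.4 in DKS-5 hypoxia, against 104 and 108 and 175 and 210.3 in DKO-3. The lines were apart at both levels of oxygen (-1.58 (SE 0.18, adjusted p 1.50e-05)). INHBB, an activin subunit (-1.21), the signal transducer SMAD3 (-0.49) and the BMP target ID2 (-0.64) were also lower in DKS-5. The receptor TGFBR2 (0.76 (SE 0.12, adjusted p 0.000663)) and the latency protein LTBP1 (0.74) were higher.

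Genes of cholesterol synthesis that passed were higher in DKS-5. Of 16 genes tested, 5 were higher, 0 lower and 11 did not pass (31.2% called, against 9.93% of all genes). Their median of 0.30 was 0.07 without scaling. SC5D, a late desaturase of the pathway, gave 1380.4 and 1554 (normoxia) and 1826 and 1748 (hypoxia) in DKS-5, against 638 and 548 (normoxia) and 504 and 628 (hypoxia) in DKO-3. The DKS-5 arrays were all more than 2-fold brighter than the DKO-3 arrays, with a difference of 1.46 (SE 0.14, adjusted p 2.52e-06). INSIG1, the sterol-sensing retention protein (0.80), the epoxidase SQLE (0.69), the sterol carrier STARD4 (0.67) and the oxidase MSMO1 (0.59) followed. SQLE and MSMO1 overlapped between the lines in normoxia, so that 3 of the 5 differed alike. The count was 3 without DKO-3 normoxia replicate 2 and 1 with the ACTB ratio as a covariate or without the oxygen term. Without scaling it was 2 higher and 1 lower. HMGCS1 (0.38), an early synthase of the pathway, did not pass.

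Of 26 matrix protease, integrin and laminin genes tested, 5 were lower in DKS-5, 2 higher and 19 did not pass. Called were 26.9%, against 9.93% of all genes. TIMP3, an inhibitor of metalloproteinases, was at 118 to 177 in DKS-5 and 362 to 635 in DKO-3 (-1.60 (SE 0.19, adjusted p 3.03e-05)). TSPAN1, a tetraspanin (-1.55), the laminin chain LAMB3 (-0.65), the integrin ITGA3 (-0.75) and MMP28 (-0.62) were lower too, whereas the protease inhibitor SERPINE2 (1.35) and the integrin ITGB1 (0.40) were higher. The count was 4 without DKS-5 normoxia replicate 1 or without DKO-3 hypoxia replicate 1. Among mesenchymal genes 3 of 14 (21.4%, against 6.64% of all genes) were lower in DKS-5 and 0 were higher. The 3 were the actin-binding proteins CALD1 (-1.46) and TPM1 (-0.67) and the calcium-binding S100A4 (-0.57). S100A4 is uncertain, being lost under 10 of 22 alternatives. FN1 (0.18) and ZEB1 (-0.01) did not pass.

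NF-kappaB genes and chemokines gave 2 lower and 1 higher of 17 tested (17.6% called, against 9.93% of all genes). LCN2, the iron-scavenging lipocalin of inflamed epithelium, gave 34.5 and 57.1 (normoxia) and 41.2 and 70.8 (hypoxia) in DKS-5, against 145 and 229 (normoxia) and 266 and 268 (hypoxia) in DKO-3. The DKS-5 arrays were all dimmer, with a difference of -1.86 (SE 0.20, adjusted p 1.05e-05). NFKBIA, the inhibitor of NF-kappaB, was lower as well (-0.56), but this call is uncertain, being lost under 15 of 22 alternatives. PTGS2, the inducible enzyme of prostaglandin synthesis, was higher in DKS-5 (0.87 (SE 0.18, adjusted p 0.00396)). NRF2 targets and aldo-keto reductases gave 1 higher, the quinone reductase NQO1 (0.65), and 3 lower of 23 tested. These made up 17.4%, against 9.93% of all genes. The lower ones were the exporter ABCC2 (-0.63) and the reductases AKR1C1 (-0.86) and AKR1C2 (-1.02), which are near-identical copies and uncertain. ABCC2 is uncertain too, being lost under 8 of the 21 alternatives in which it was tested.

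Of 33 cell cycle and replication genes tested, 2 were lower in DKS-5, 0 higher and 31 did not pass, so that 6.06% were called, against 9.93% of all genes. These were the cyclins CCND2 (-1.08 (SE 0.16, adjusted p 0.000334)), which was dim, and CCNB2 (-0.54 (SE 0.13, adjusted p 0.0132)). With the mean of a gene's probe sets 0 members were called, and without DKO-3 normoxia replicate 2 it was 1. MKI67, the proliferation marker, had 0.16 and did not pass. Of 26 apoptosis regulators tested, 15.4% were called, against 9.93% of all genes, and 3 were lower in DKS-5, namely CASP10 (-1.03 (SE 0.17, adjusted p 0.000661)), the survival factor BCL2L1 (-0.78) and the death receptor FAS (-0.64), and 1 was higher, the receptor TNFRSF10B (0.48). TNFRSF10B is uncertain, since its 4 probe sets ran from -0.13 to 0.53 and it was lost under 12 of 22 alternatives, their mean included. FAS is uncertain too, being lost under 13 of 22. The count of 4 called apoptosis regulators was 1 when replicate 1 of DKO-3 hypoxia was left out. It was 2 when replicate 2 of any group but DKO-3 normoxia was left out. Of the X-linked cancer-testis genes 4 were bright enough to test and 0 were called. At an unadjusted p under 0.05 there was 1, SSX1 (-0.43), where 23.6% of all genes reached that p.

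Genes known to be induced by hypoxia were the list in which differences between the lines were least alike. Of 33 tested, 7 were higher in DKS-5, 1 lower and 25 did not pass (24.2% called, against 9.93% of all genes). Only the kinase PDK1 (0.67) and the HIF hydroxylase EGLN3 (0.59) of these 8 called genes differed alike. Among all called genes, the smallest interaction p was that of VEGFA, the angiogenic growth factor, with 231 and 214 (normoxia) and 1200.3 and 865 (hypoxia) in DKS-5, against 198 and 173 (normoxia) and 296 and 275 (hypoxia) in DKO-3. DKS-5 hypoxia stood above the other 3 groups. The pooled difference of 1.01 was 0.24 in normoxia and 1.78 in hypoxia, and the interaction of 1.54 (SE 0.33) had an unadjusted p of 0.000334 and did not pass adjustment. The other VEGFA probe sets gave pooled differences of 0.01, 0.30 and 0.60. The pooled call was lost under 7 of 22 alternatives, among them the mean of probe sets and leaving out either DKO-3 hypoxia array. ENO2, a glycolytic enolase, had -1.58 in normoxia and -0.36 in hypoxia. The called count of the list was 3 and 4 when replicate 1 or replicate 2 of DKO-3 hypoxia was left out, 5 without DKS-5 normoxia replicate 2 and 0 without the oxygen term.

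The other genes among the 5 that departed most from an equal difference were MYH7B, NPAS3 and PPFIA4. MYH7B, a myosin heavy chain, had 1.84 in normoxia and 0.41 in hypoxia, NPAS3, a neuronal transcription factor, 0.29 and 1.51, and PPFIA4, a liprin, -0.94 and -2.26. In all 5 the sign was the same at both oxygen levels, and the unadjusted p of the interaction was 0.00482 or lower.

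The genes lower in DKS-5 were unevenly spread over the chromosomes, a pattern followed up after the values were seen. On chromosome 15, 103 of 428 genes tested (24.1%) were lower in DKS-5 and 1 was higher, FRMD5 (0.78). On the other chromosomes together 742 genes (6.03%) were lower, and the share per chromosome ran from 1.69% on chromosome 13 to 9.74% on chromosome 10. The median difference on chromosome 15 was -0.28, at -0.28 in normoxia and -0.29 in hypoxia, against -0.05 to 0.11 on the others. Of the 103 genes 91 differed alike, and the 103 made up 12.2% of all genes called lower in DKS-5. Without chromosome 15, 1160 genes were called, 418 higher and 742 lower.

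**Figure D4:**
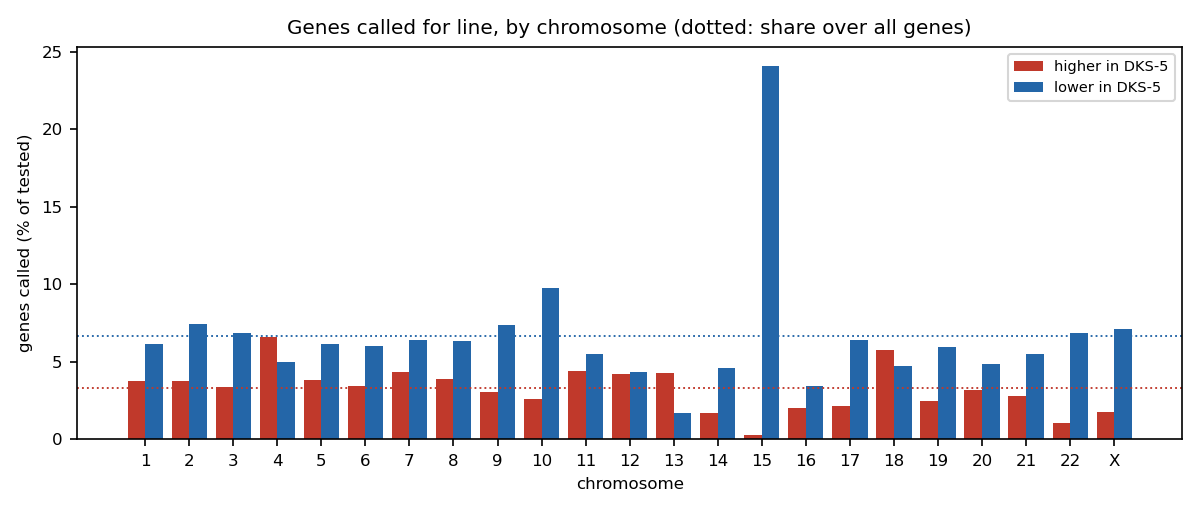
Share of the tested genes on each chromosome that were called higher or lower in DKS-5, with the shares over all genes as dotted lines. Chromosome 15 stands out at 24.1% lower, and no other chromosome exceeds 9.74%.

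The shift was not spread evenly along chromosome 15. In the order of genes in the RefSeq table (GRCh38.p14), 120 tested genes from LOC646214 to B2M had a median of -0.02 with 6 lower (5% of them), whereas 308 from TRIM69 to TARS3 had a median of -0.37 with 97 lower (31.5%) and 26 above 0. The point of division was read from the medians of 21 blocks of at least 20 genes, so the contrast between the stretches is a description. The 15 blocks from TRIM69 on had medians from -0.60 to -0.22. The median deviation of chromosome 15 genes from each gene's mean was -0.15 to -0.11 on the 4 DKS-5 arrays and 0.11 to 0.19 on the 4 DKO-3 arrays, with no overlap.

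The largest differences on this chromosome were in genes of varied function. COXFA4L3, related to a subunit of cytochrome oxidase, had -2.49 (SE 0.20, adjusted p 4.07e-07). WDR72, a protein of vesicle traffic, had -2.04, ALDH1A3, which makes retinoic acid, -1.98, and LARP6, which binds collagen mRNA, -1.95. Genes named in the lists above that lie in the second stretch include SMAD3, TPM1, CCNB2 and the interferon list member ISG20. B2M is the last gene of the first stretch. The count of genes lower on chromosome 15 was 64 without DKS-5 normoxia replicate 1 and 64 to 100 over the 8 arrays left out in turn. It was 44 with the ACTB ratio as a covariate, 42 and 20 with the normoxia or the hypoxia arrays alone, and 175 with no scaling.

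**Figure D5:**
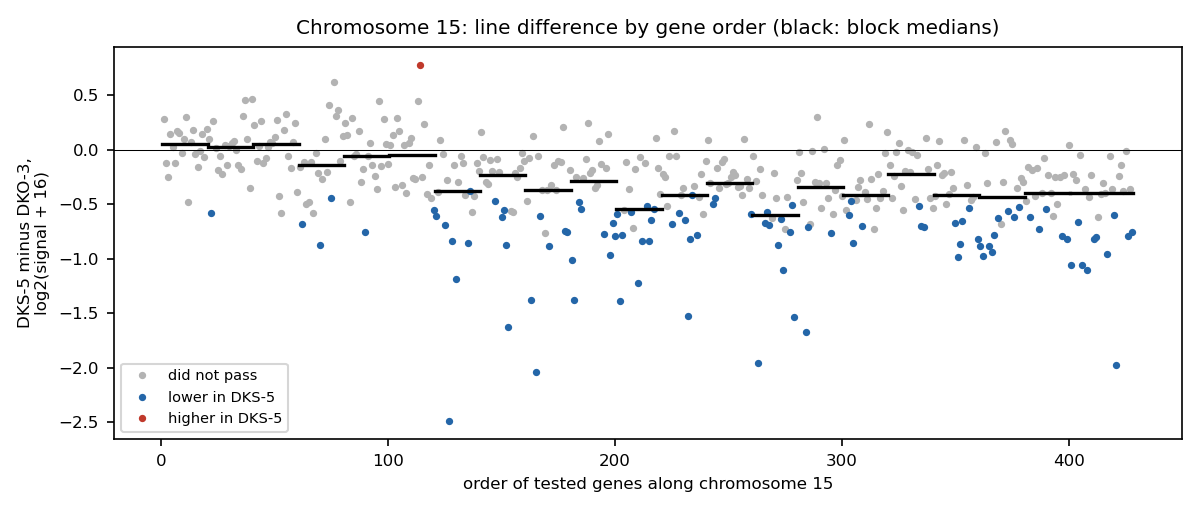
Difference between the lines for each of the 428 genes tested on chromosome 15, in their order along the chromosome, with the median of each block of genes in black. The block medians lie near 0 up to B2M and between -0.60 and -0.22 from TRIM69 on.

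The X chromosome held 4 of the 12 lowest genes in DKS-5, SH3BGRL, RPS6KA6, KLHL13 and HMGN5. As a whole it was near the background, with 28 of 394 genes (7.11%) lower and 7 higher. HMGN5, SH3BGRL and RPS6KA6 are neighbours among the tested genes of the RefSeq order, with differences of -3.09, -4.90 and -3.66. The tested genes on either side, BRWD3 (0.25) and APOOL (-0.20), did not pass.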

How the data were processed

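The authors deposited linear probe set intensities from 8 arrays (2 a group). MAS5 made them, per the submitters' processing notes, whereas its version and target intensity and the scan batches are not given in the sources used here. No detection calls were used, and the small number of arrays limits precision. Of 54675 probe sets, 62 controls were left out and 41091 carried 1 gene symbol in the platform annotation, 1801 several and 11721 none. Of those with 1 symbol, 41037 matched RefSeq (GRCh38.p14), with 0 symbols changed. Each array was scaled to a 2% trimmed mean of 172.1 (deposited values 133 to 201), and log2(signal + 16) was taken. Each gene was represented by its probe set with the highest mean, and genes above the 40th percentile of probe set means (signal 13.8) were tested, 12735 of 19775.

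The lines were compared with limma 3.58.1 under R 4.3.3 (line plus oxygen, eBayes with trend, two-sided, Benjamini-Hochberg, threshold 0.05), with 5 residual degrees of freedom and 11.6 prior ones. Simulated data had 12735 genes with independent noise and few genes changed by line (50 at 1.5-fold, 100 at 2-fold, 50 at 4-fold). This fit found 20% of 1.5-fold, 71% of 2-fold and 98% of 4-fold changes, with 5 false calls among 135. Shifts shared by many genes of an array, such as by RNA quality, were not simulated, so these rates may not hold for the arrays. Named genes were the 12 largest differences in each direction among genes that differed alike, up to 4 members of each of 22 lists with the smallest p, the on-off genes, the genes beside the threshold and the 5 called genes with the smallest interaction p. Other list members, and the genes of chromosomes 15 and X, were named after their values were seen. The result of 1 list is not reported here. The members and lists were chosen with earlier results of these data known. Alternatives were other scalings, pseudocounts, filters, probe set rules, covariates and arrays left out.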

Additional observations from a re-analysis of the deposited data

How the results depend on the processing

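In place of 1264 called genes, the normoxia arrays alone gave 446 and the hypoxia arrays alone 357, with 4 arrays each. The ACTB 3' to 5' ratio as a covariate gave 554 called genes, 490 of them alike. Called at both oxygen levels separately were 247 genes, against 1085 that differed alike. Leaving out 1 array in turn gave 826 (without DKO-3 hypoxia replicate 1) to 1258 called genes and 759 to 1093 alike. The other settings gave 917 (no oxygen term) to 1724 (no scaling) called genes, and quantile normalization gave 1196, 429 higher and 767 lower. The interaction gave 0 genes in all settings run. Same-numbered samples of different groups deviated with mixed correlations of -0.09 to 0.33, which do not settle whether the numbers pair the samples. With the replicate number as a block, 1449 genes were called (480 higher, 969 lower), 1168 were alike and the interaction gave 0. The naming rules above picked 92 called genes. Of these, 42 were lost under none of the alternatives in which they were tested (31 in all 22, 11 in 20 or 21). Another 50 were lost under at least 1, and 0 reversed. Other genes given in the text are not in this count. The 42 lost under none include the 12 highest and the 12 lowest genes in DKS-5 among those that differed alike, except CALCA and BAHCC1. Signals near the floor limit the size of the largest differences. The cause of these changes was not tested.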

Other observations

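Genes outside the lists also differed alike, and a few are given here that were chosen after their values were seen. Being single picks, they show nothing of the groups they belong to. Higher in DKS-5 were GRB10, an adaptor that restrains insulin signalling (1.79, SE 0.19), the hepatocyte growth factor receptor MET (1.07), the growth factors FGF2 (1.19) and FGF20 (1.47), and the cell cycle kinase CDK6 (1.78). Lower was the receptor FGFR3 (-1.45, SE 0.19). Among regulators of transcription, TEAD2 (1.55), MYCL (1.17) and the chromatin protein HMGA2 (0.85) were higher in DKS-5, and ETS1 (-1.36), LMO2 (-2.25) and HOPX (-2.24) were lower. ABCB1, a drug exporter, was higher (1.01).

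Other genes picked in the same way that were lower in DKS-5 were the protease inhibitor SLPI (-1.83), the RNA sensor TLR3 (-1.49), the antigen-presenting molecule MR1 (-1.75), the interferon-responsive SAMD9 (-1.69), the antiprotease SERPINA1 (-1.61), the water channel AQP3 (-1.96), the keratin KRT4 (-2.03) and PROM2, a relative of PROM1 (-2.05). PTGS1, the constitutive enzyme of prostaglandin synthesis, was lower (-1.79, SE 0.25), opposite to PTGS2. Next below the 12 lowest genes was PBDC1, an X-linked gene (-2.63).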
